A study of Mus musculus with 12 samples.

Results

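The tripartite motif (TRIM) genes were examined in RNA-seq of B16F10 cells, a mouse melanoma line. Members were all genes of the FPKM table whose symbol is Trim followed by a number and at most 1 letter, which gave 62 of 29549 genes. The 12 libraries form 4 groups of 3. The sgRnf19a_IR group holds cells that the labels call Rnf19a deficient, 24 h into a treatment that the labels call IR and do not spell out. The sgRnf19a group holds untreated cells with the same guide, the control_IR group holds cells with the control guide sgNC under the same IR treatment, and the control group holds untreated sgNC cells. A guide is the RNA that directs Cas9 to a gene, here Rnf19a, which encodes a RING-type ubiquitin ligase. The labels state neither whether the cells of a guide were 1 clone or a pool, nor whether replicates were grown apart. The p-values therefore measure the spread between these libraries, which may be technical.

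TRIM proteins share a RING domain, 1 or more B-boxes and a coiled coil, and most act as ubiquitin ligases. The end of the protein differs between subfamilies: a SPRY domain binds viral or cellular proteins, a PHD finger with a bromodomain reads histones, and NHL repeats bind RNA or protein. Many SPRY members are induced by interferon, and several act in cytosolic nucleic acid sensing as ligases or scaffolds. A group of paralogs on mouse chromosome 7, including Trim5, Trim12a, Trim30a and Trim34a, has expanded in the mouse.

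The promoters of the members that were higher in untreated sgRnf19a cells are shown first, because 8 of the 11 with an entry share a short element. The search was for the core of the interferon-stimulated response element, GAAA and GAAA with any 2 bases between them, on both strands, so that a match on the other strand reads TTTC and TTTC. RefSeq windows of build GRCm38.p6 run from 250 bases before to 50 bases after a gene start. Windows were present for 48 members, some with several starts. The element was in 10 of the 62 windows of TRIM members (16.1%), which belong to 9 members, against 3.44% of all 32851 windows. In the stretches below, printed 5′ to 3′ on the gene's strand, capitals mark the element. In Trim21 and Trim26 they cover 2 overlapping matches.
Trim30a, chr7:104465185-104465264, minus strand: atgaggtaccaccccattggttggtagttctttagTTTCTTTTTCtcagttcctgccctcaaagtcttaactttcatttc
Trim30d, chr7:104507846-104507925, minus strand: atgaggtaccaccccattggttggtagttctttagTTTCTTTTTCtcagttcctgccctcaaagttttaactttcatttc
Trim5, chr7:104288111-104288190, minus strand: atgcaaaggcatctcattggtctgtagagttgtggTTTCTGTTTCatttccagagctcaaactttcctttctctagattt
Trim12a, chr7:104315446-104315520, minus strand: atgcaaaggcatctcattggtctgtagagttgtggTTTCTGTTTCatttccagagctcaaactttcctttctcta
Trim12c, chr7:104353334-104353413, minus strand: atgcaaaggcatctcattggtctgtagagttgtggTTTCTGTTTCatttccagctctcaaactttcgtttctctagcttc
Trim34a, chr7:104244432-104244506, plus strand: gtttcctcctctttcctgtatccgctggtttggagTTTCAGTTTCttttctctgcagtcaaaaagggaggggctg
Trim21, chr7:102565433-102565504, minus strand: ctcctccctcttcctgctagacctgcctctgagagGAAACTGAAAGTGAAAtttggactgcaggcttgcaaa
Trim26, chr17:36836951-36837036, plus strand: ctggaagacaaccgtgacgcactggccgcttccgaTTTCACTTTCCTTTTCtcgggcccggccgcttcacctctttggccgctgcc

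The cluster windows resemble each other beyond the element. The Trim30a and Trim30d windows were identical at 277 of 300 aligned bases (92.3%) and those of Trim12c and Trim5 at 265 (88.3%). Such paralogs may share reads, so values of single genes among Trim5, Trim12a and Trim12c, Trim30a to Trim30d, Trim34a and Trim34b, and Trim43a to Trim43c are uncertain. The ninth member with the element is Trim2, at an alternative start. TTCNNNGAA, the STAT dimer element, was in 6 of the 62 TRIM windows (9.68%) and in 8.30% of all windows. A match describes the letters of a window and is not a measured binding site.

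Library depth and composition differed with IR. The deposited counts summed to 34262483 to 45576326 in the IR-treated libraries and to 62681644 to 71265107 in the untreated ones. Ribosomal RNA genes took 11.4% to 22.2% of counts in IR-treated libraries, against 0.408% to 0.813% in untreated ones. For protein-coding genes, each log2 level was also taken relative to that gene's mean over the 12 libraries. The median of long transcripts minus that of short ones ran from -1.89 to 0.0093 in IR-treated libraries, against 0.667 to 1.59 in untreated ones. These values compare libraries with each other and are no absolute levels. The highest IR-treated value belonged to sgRnf19a_IR replicate 4, which stood apart from the other 2 libraries of its group. Rnf19a itself, as TMM-scaled CPM (counts scaled to a common library size), had 18.1, 11.6 and 37.7 in sgRnf19a_IR, 27.4, 25.6 and 22.6 in sgRnf19a, 4.37, 8.06 and 5.39 in control_IR, and 33.5, 29.4 and 21.5 in control. The untreated groups overlapped. Under IR Rnf19a was higher in sgRnf19a_IR than in control_IR, without overlap (log2 fold change 1.92 ± 0.38, SE, adjusted p = 0.00352), which is opposite to a lower transcript in the deficient cells. An edit that disables a protein need not lower its RNA, so this transcript does not check the guide labels, and every guide comparison below rests on them. Against the label of a melanoma line, 4 of 8 melanocyte markers (Slc45a2, Mlana, Tyrp1 and Tyr) were at 0 in all 12 libraries, whereas the epithelial keratin Krt8 had 150.8 to 707.8 CPM. The keratin Krt18 had 143.2 to 314.5 CPM, but the epithelial adhesion genes Epcam and Cdh1 reached at most 2.21 and 0.181 CPM. The epithelial sums below are thus nearly all Krt8 and Krt18, and the epithelial markers do not agree on a cell type. Summed leukocyte markers were 1.81 to 11.4 CPM in sgRnf19a_IR, 2.70 to 6.91 in sgRnf19a, 0.429 to 3.23 in control_IR and 4.03 to 9.88 in control, with Cd3e at 0 throughout, and did not separate the guides. The sums that did move with a group were those of 4 epithelial markers (296 to 495 CPM in sgRnf19a_IR, 387 to 399 in sgRnf19a, 855 to 1024 in control_IR and 541 to 644 in control), 3 endothelial markers (4.15 to 5.66 CPM in sgRnf19a_IR, 0.792 to 3.06 in sgRnf19a, 0.946 to 2.34 in control_IR and 2.08 to 3.90 in control) and the 8 melanocyte markers, of which nearly all counts were Mitf (3.73 to 10.5 CPM in sgRnf19a_IR, 15.8 to 16.4 in sgRnf19a, 2.29 to 3.09 in control_IR and 9.53 to 13.8 in control). Sums of 4 fibroblast markers overlapped between all groups. The part of these cell markers in the results below was not tested. In bulk RNA, fewer cells of a type and less RNA per cell cannot be told apart.

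Levels spanned a wide range. Of the 62 members, 50 passed the filter on low counts and were tested, and 12 did not (Trim10, Trim30b, Trim38, Trim40, Trim43a, Trim43b, Trim50, Trim63, Trim67, Trim72, Trim75 and Trim80, with at most 26 counts in any library). A further 6 TRIM names of the count table (Trim31, Trim42, Trim52, Trim55, Trim60 and Trim61) had 0 counts in every library. By FPKM, which is per transcript length, members at 10 or more numbered 12 in sgRnf19a_IR, 14 in sgRnf19a, 7 in control_IR and 10 in control. The order at the top differed between groups. In control cells Trim28, the corepressor recruited by KRAB zinc finger proteins, had the highest mean level (66.2 ± 10.7 FPKM, SD, n = 3), followed by Trim59 (43.4 ± 7.0) and Trim35 (30.7 ± 1.9). Trim28 and Trim59 differed there by more than their summed SDs. In sgRnf19a cells Trim59 led (56.5 ± 2.5 FPKM), followed by Trim28 (50.4 ± 1.6), Trim35 (33.4 ± 2.0), Trim25 (32.2 ± 0.5) and Trim30a (31.5 ± 1.2), and the last 3 were within about their SDs. In control_IR cells Trim28 led (56.5 ± 3.6 FPKM), followed by Trim47 (30.7 ± 3.6). In sgRnf19a_IR cells Trim25 (43.6 ± 9.5 FPKM), Trim28 (41.1 ± 12.2), Trim59 (33.8 ± 13.3), Trim30a (32.5 ± 28.5), Trim21 (31.4 ± 8.1) and Trim34a (28.1 ± 9.6) came first, and neighbours in this order did not differ beyond their SDs.

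**Figure D1:**
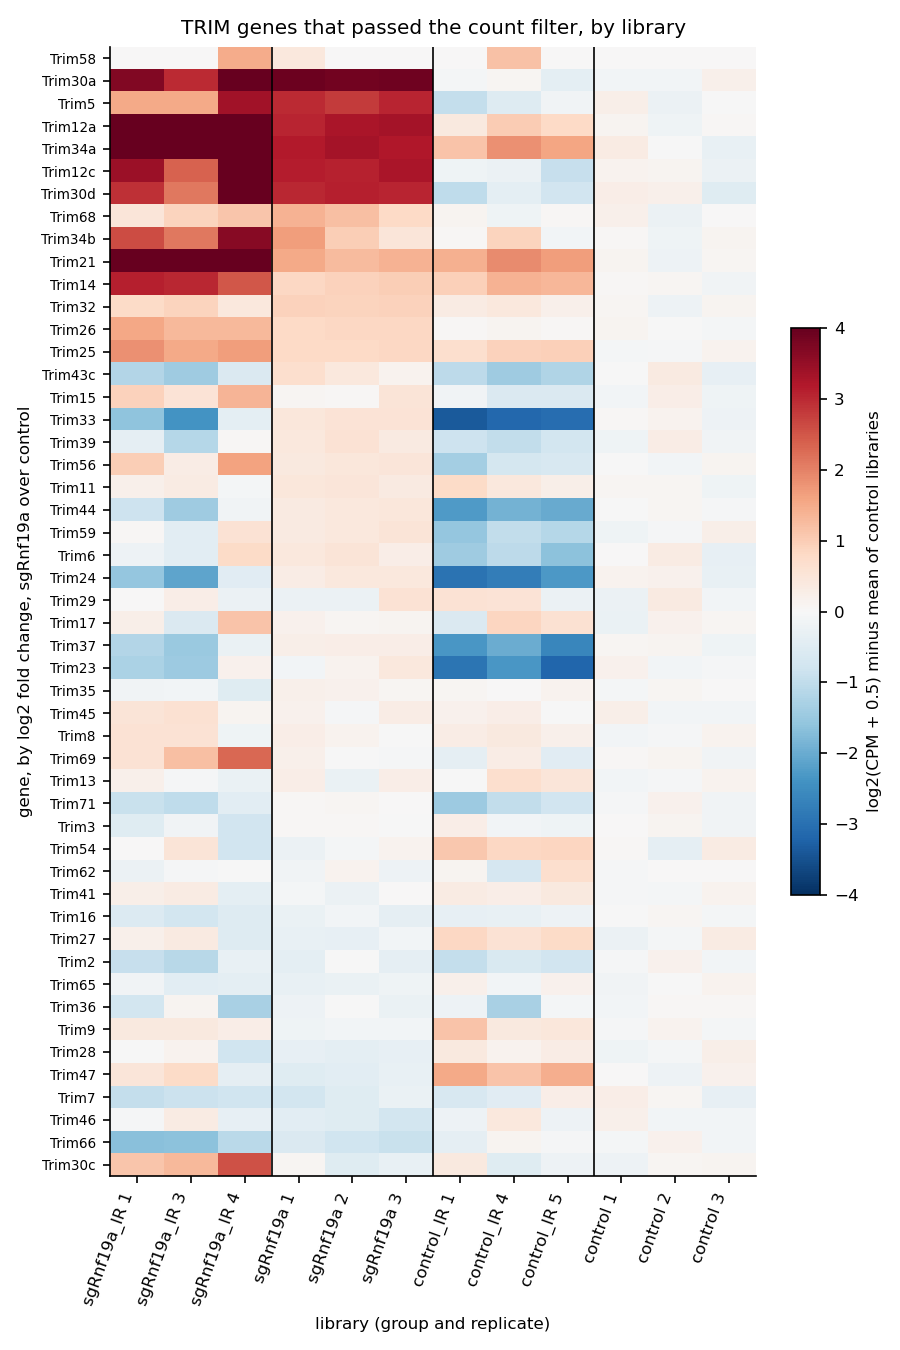
Each row is 1 of the 50 tested TRIM genes and each column 1 of the 12 libraries, and colour gives log2(CPM + 0.5) minus the mean of the control libraries, with colours capped at 4 either way. The red block at the upper left holds Trim30a, Trim5, Trim12a, Trim34a, Trim12c and Trim30d in the 6 sgRnf19a libraries, and the blue rows in control_IR are Trim33, Trim24, Trim23, Trim37 and Trim44.

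The first question was what the sgRnf19a guide changed without IR. In untreated cells 12 of the 50 tested members were higher in sgRnf19a than in control and 0 were lower, at an adjusted p under 0.05 in edgeR's quasi-likelihood test with Benjamini-Hochberg adjustment over all 18183 genes. Across all genes tested, 3.02% were higher and 3.20% lower. At an unadjusted p under 0.05, 2 members were lower, and DESeq2 called 1 lower. Shares over all genes were not taken for these counts. All 12 higher members belong to 2 lists: 6 of the 9 tested genes of the chromosome 7 cluster, and 6 of the 14 tested genes of nucleic acid sensing, interferon and NF-kB signalling. The lists were chosen with earlier results of these data known, so this concentration only describes the calls. As a description, the median log2 fold change was 3.36 over the tested cluster genes and 0.029 over all genes tested. None of the 4 PHD-bromodomain genes, the 4 tested COS box genes or the 5 genes of the MATH, ARF, filamin and transmembrane classes was called.

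The cluster is 10 genes in 289 kb of chromosome 7 (chr7:104218793-104507849, mm10). Trim30a (ENSMUSG00000030921), which in mouse dampens NF-kB signalling from Toll-like receptors, had 103, 62.2 and 324 CPM in sgRnf19a_IR, 121, 116 and 117 in sgRnf19a, 7.07, 7.86 and 5.5 in control_IR, and 6.85, 6.92 and 8.68 in control. Every library with the sgRnf19a guide was above every library with the control guide. Without IR its mean was 118 ± 2.5 CPM in sgRnf19a and 7.48 ± 1.04 in control (SD, n = 3 each), a log2 fold change of 3.98 ± 0.50 (SE, adjusted p = 0.000397). Its neighbour Trim30d had 43.1, 24.1 and 127 CPM in sgRnf19a_IR, 46.4, 48.5 and 47 in sgRnf19a, 2.34, 3.84 and 2.87 in control_IR, and 6.36, 6.14 and 3.63 in control. The guides did not overlap at Trim30d either, and the untreated log2 fold change was 3.14 ± 0.50 (adjusted p = 0.00244).

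Trim5, Trim12a and Trim12c are the mouse relatives of primate TRIM5, which restricts retroviruses by binding the incoming capsid. Trim12a had 45.6, 37.4 and 94.7 CPM in sgRnf19a_IR, 15.7, 18.5 and 19.4 in sgRnf19a, 2.09, 3.47 and 2.9 in control_IR, and 1.62, 1.24 and 1.54 in control. Trim12c had 35.6, 16.6 and 127 CPM in sgRnf19a_IR, 29.2, 28.2 and 31.6 in sgRnf19a, 2.49, 2.35 and 1.29 in control_IR, and 3.21, 3.11 and 2.35 in control. Trim5 had 2.25, 2.24 and 9.45 CPM in sgRnf19a_IR, 7.13, 6.12 and 7.38 in sgRnf19a, 0, 0.172 and 0.376 in control_IR, and 0.636, 0.324 and 0.445 in control. In all 3 genes the sgRnf19a libraries stood above the control libraries without overlap, both with and without IR. The untreated log2 fold changes were 3.60 ± 0.34 for Trim12a (adjusted p = 4.62e-05), 3.36 ± 0.59 for Trim12c (adjusted p = 0.00458) and 3.87 ± 0.71 for Trim5 (adjusted p = 0.0062).

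Trim34a, an interferon-induced SPRY member, had 92.9, 63.5 and 112 CPM in sgRnf19a_IR, 17.7, 19.9 and 18.1 in sgRnf19a, 4.01, 6.74 and 5.55 in control_IR, and 2.03, 1.53 and 1.14 in control. The 4 groups did not overlap, and the untreated log2 fold change was 3.56 ± 0.28 (adjusted p = 1.35e-05). Its copy Trim34b had 4.32, 2.93 and 9.37 CPM in sgRnf19a_IR, 2, 1.07 and 0.606 in sgRnf19a, 0.32, 0.975 and 0.242 in control_IR, and 0.318, 0.207 and 0.361 in control. Untreated Trim34b was above control in all 3 sgRnf19a libraries but missed the threshold (2.04 ± 0.62, adjusted p = 0.085).

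The remaining cluster genes differed from these. Trim6, whose human protein makes unanchored ubiquitin chains that act in IKKe signalling, lies inside the cluster and had 5.85, 4.93 and 12 CPM in sgRnf19a_IR, 9.34, 9.91 and 8.38 in sgRnf19a, 2.24, 3.04 and 1.88 in control_IR, and 6.89, 8.71 and 5.33 in control. Its untreated groups overlapped, and the log2 fold change was 0.40 ± 0.32 (adjusted p = 0.601). Trim30c had 43, 35 and 135 counts in sgRnf19a_IR, 18, 0 and 5 in sgRnf19a, 12, 0 and 4 in control_IR, and 8, 19 and 21 in control. Trim30b was not tested: it had 8, 7 and 25 counts in sgRnf19a_IR, 9, 19 and 5 in sgRnf19a, 0, 4 and 0 in control_IR, and 0, 0 and 6 in control. Since about 4 deposited counts stand for 1 read pair, 12 counts, or 3 read pairs, were taken as the floor, and most of these values lie near or under it.

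Genes near the cluster were read within 2 Mb on either side. Trim68 and Trim21 lie there, 1531466 and 1653307 bp before the cluster, and both were higher in sgRnf19a (values below). Trim3 lies there too, 1096614 bp after the cluster, and was not called (log2 fold change 0.022 ± 0.17, adjusted p = 0.970). Its means were 28.2 CPM in sgRnf19a and 27.7 CPM in control. Of the 38 tested genes there without a TRIM name, 0 were higher and 1 was lower in sgRnf19a than in control, and their median log2 fold change was -0.0023. Over all genes tested 3.02% were higher and 3.20% lower, so both counts were near the background. Many of these neighbours were low, such as Hpx (means of 0.092 CPM in sgRnf19a and 0.095 in control). Others varied widely, such as Hbb-bs (-0.43 ± 1.40), so the lack of a call does not show equal levels. The lower gene was Apbb1, with a mean of 5.65 CPM in sgRnf19a and 14.5 CPM in control (log2 fold change -1.36 ± 0.24, adjusted p = 0.00451).

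**Figure D2:**
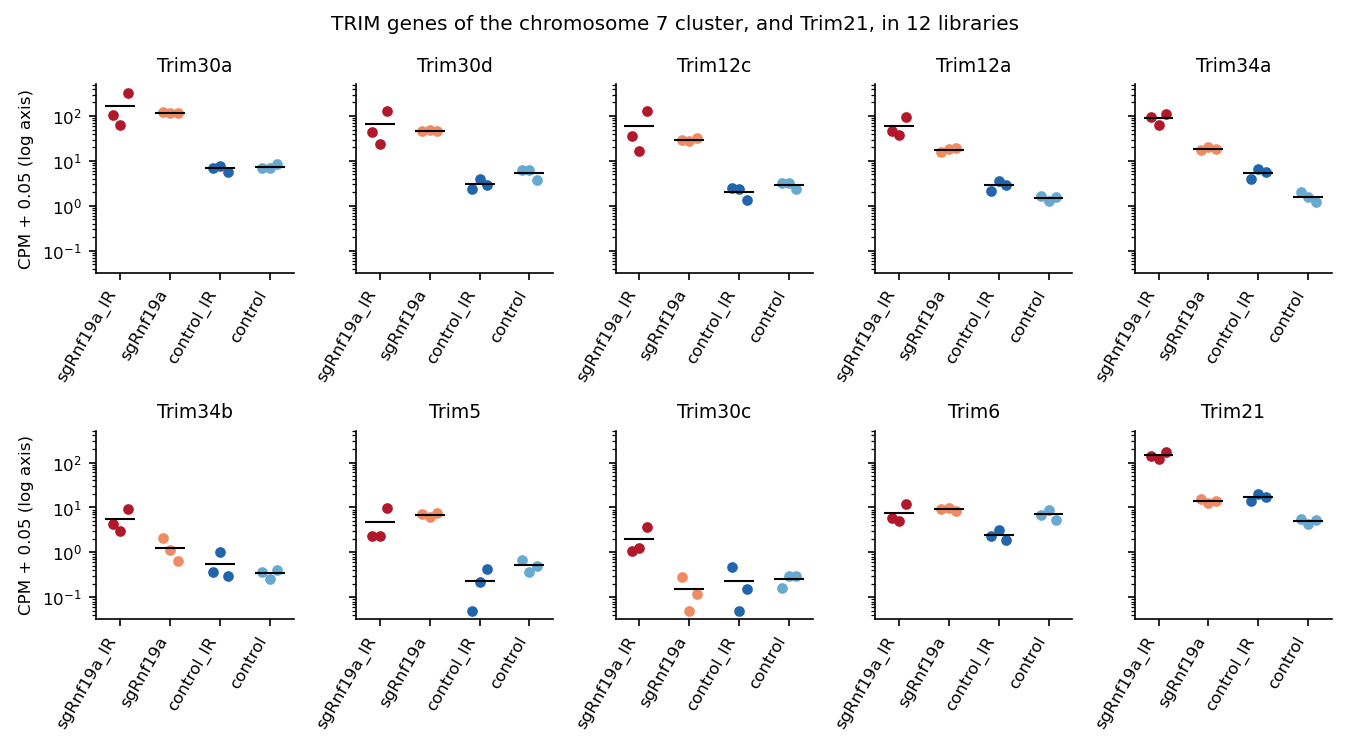
Each panel plots CPM + 0.05 on a log axis for 1 gene, with 1 point per library, a bar at the group mean, and the groups sgRnf19a_IR, sgRnf19a, control_IR and control in order. The guides are separated at Trim30a, Trim30d, Trim12c, Trim12a, Trim34a and Trim5, the untreated groups overlap at Trim6, and Trim21 reaches 120 to 174 CPM in sgRnf19a_IR alone.

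Among the sensing and signalling genes, the 6 called higher in untreated sgRnf19a cells were Trim68, Trim21, Trim14, Trim32, Trim26 and Trim25. Trim21 (ENSMUSG00000030966, chr7:102557921-102565486), the cytosolic receptor for antibody Fc that also ubiquitinates sensing proteins, had 140, 120 and 174 CPM in sgRnf19a_IR, 15.1, 12.6 and 13.8 in sgRnf19a, 14.1, 19.4 and 16.9 in control_IR, and 5.4, 4.2 and 5.23 in control. Without IR the groups did not overlap, with a log2 fold change of 1.49 ± 0.18 (adjusted p = 0.000285). Trim25, which in human cells attaches ubiquitin chains to the RNA sensor RIG-I, had 344, 278 and 310 CPM in sgRnf19a_IR, 167, 168 and 172 in sgRnf19a, 153, 182 and 188 in control_IR, and 90.4, 92.9 and 106 in control. Its untreated groups did not overlap, and the log2 fold change was 0.81 ± 0.13 (adjusted p = 0.00218).

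Trim14, a member without a RING domain that serves as a scaffold at the adaptor MAVS, had 62.5, 58.9 and 39.8 CPM in sgRnf19a_IR, 12.5, 13.3 and 13.8 in sgRnf19a, 13.7, 18.4 and 17.7 in control_IR, and 7.1, 7.23 and 6.07 in control. The untreated groups did not overlap (0.96 ± 0.18, adjusted p = 0.00797). Trim26, a ligase that acts on interferon signalling, had 158, 135 and 133 CPM in sgRnf19a_IR, 94, 97 and 95.8 in sgRnf19a, 56.5, 58.2 and 56.3 in control_IR, and 58.5, 52.9 and 51.1 in control. The guides were separated with and without IR, and the untreated log2 fold change was 0.82 ± 0.11 (adjusted p = 0.000795). Trim32, an NHL repeat ligase that acts on STING and in muscle, had 30.2, 33 and 23.5 CPM in sgRnf19a_IR, 33.4, 32.4 and 33.5 in sgRnf19a, 22, 23.2 and 20.1 in control_IR, and 18.6, 15.2 and 18.7 in control. Its untreated log2 fold change was 0.92 ± 0.15 (adjusted p = 0.00256), and it was the only NHL gene called there. Trim68 was low, at 1.37, 1.14 and 0.744 CPM in sgRnf19a and 0.332, 0.117 and 0.229 in control (2.26 ± 0.53, adjusted p = 0.0249). That call was lost with a replicate block (adjusted p = 0.0522) and without sgRnf19a replicate 1 or 2 or control replicate 2 or 3 (adjusted p of 0.0837 to 0.103).

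Reads from overlapping genes on opposite strands cannot be told apart here, because the use of strand in counting is not stated. This concerns 24 members, among the called ones Trim14, which overlaps Nans, Trim32, which overlaps Astn2, and Trim69, which overlaps Patl2. Of the called cluster genes it concerns Trim12a (Gm15133), Trim30a (Gm25405), Trim34a (Gm47248) and Trim6 (Gm8667). Trim26 overlaps Gm25973, and further called members are also affected. On the same strand Trim65 overlaps Trim47. Trim56, a ligase of the cGAS and STING pathway, was not called without IR (0.44 ± 0.28, adjusted p = 0.487). Trim13, Trim27, Trim41 and Trim65 were not called without IR either, with log2 fold changes between -0.27 and 0.12, and Trim38 had 4 counts in 1 control_IR library and 0 in the other 11.

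The promoter element and the guide effect can be set side by side. Of the 9 tested members whose window held the interferon-stimulated response element core, 8 were higher in untreated sgRnf19a cells, the exception being Trim2. Among these 8, Trim30a, Trim30d, Trim5, Trim12a, Trim12c and Trim34a are cluster paralogs. Several of their windows are near copies and their reads may be shared, so they are not separate cases. The share higher among all genes with the element was not counted. Of the 29 tested members with a window but without the element, 3 were higher. The share higher over all genes tested was 3.02%. Under IR the same 8 of 9 members with the element and 13 of the 29 without it were higher, against 21.0% of all genes, and 0 and 4 were lower. These counts describe the members and were not tested.

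Interferon genes around these members were read from a list of 23 sensors, adaptors and cofactors. In untreated cells 10 of the 23 were higher and 0 lower in sgRnf19a, against 3.02% and 3.20% of all genes, among them Stat2, Irf7, Irf9, Isg15, Cgas, Ifih1, Dhx58, Ddx58 (RIG-I) and Traf3. Irf7, a transcription factor of interferon genes, had 91.9, 83.2 and 93.2 CPM in sgRnf19a and 13.9, 12.1 and 13.9 in control, without overlap (2.75 ± 0.18, adjusted p = 4.66e-06). Ifnb1, the interferon beta gene, had 0.214, 0.143 and 0.4 CPM in sgRnf19a and 0.235, 0.143 and 0.205 in control, which overlapped (0.37 ± 0.36, adjusted p = 0.694). Among TRIM proteins under other symbols, Pml, the organiser of nuclear bodies, was higher in sgRnf19a (121, 129 and 107 CPM) than in control (77.2, 78.8 and 73.9), with a log2 fold change of 0.63 ± 0.15 (adjusted p = 0.0303). Mid2, a microtubule-binding relative, was also higher, with 19, 24.3 and 23.5 CPM in sgRnf19a and 4.47, 4.29 and 4.85 in control (2.29 ± 0.43, adjusted p = 0.00693).

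With IR the guide comparison covered more members. In IR-treated cells 23 of the 50 tested members were higher in sgRnf19a_IR than in control_IR and 4 were lower, against 21.0% higher and 12.8% lower over all genes tested. Of the 12 members higher without IR, 11 were also higher with IR, which is 91.7% of the untreated calls and 47.8% of the IR-treated ones. The same overlap over all genes tested was not counted. All 9 tested cluster genes were called higher, among them Trim30c, whose call was lost in 12 of its 19 alternatives, with a median log2 fold change of 4.39, against 0.070 over all genes tested. The calls were 7 higher and 1 lower of 14 sensing genes, 2 higher and 1 lower of 4 PHD-bromodomain genes, 3 higher of 5 in the single classes, 1 lower of 4 COS box genes, and 0 of 4 NHL genes.

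Within the cluster the log2 fold changes under IR were 4.88 ± 0.65 for Trim12c, 4.58 ± 0.52 for Trim30a, 4.58 ± 0.80 for Trim5, 4.42 ± 0.54 for Trim30d, 4.39 ± 0.35 for Trim12a, 4.04 ± 0.28 for Trim34a and 3.43 ± 0.65 for Trim34b, with adjusted p-values from 3.14e-06 to 0.00289. The 3 sgRnf19a_IR libraries were uneven: replicate 4 was the highest at each of these genes. Without it the values fell to 3.69 for Trim12c, 3.61 for Trim30a, 3.53 for Trim5, 3.47 for Trim30d, 3.87 for Trim12a, 3.84 for Trim34a and 2.82 for Trim34b. The Trim5 value rests on 0, 6 and 14 counts in control_IR, around the floor of 12 counts, and came to 0.86 on log2(FPKM + 1) (adjusted p = 0.0125, limma). Trim6 was called here (1.67 ± 0.34, adjusted p = 0.00378), with all 3 sgRnf19a_IR libraries above all 3 control_IR libraries. Trim30c was called at the edge of the threshold (3.48 ± 1.24, adjusted p = 0.0482), and without sgRnf19a_IR replicate 4 it was not (adjusted p = 0.179, range over the alternatives 0.00946 to 0.179).

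Trim21 was 3.10 ± 0.19 higher on the log2 scale under IR (144 ± 27.6 CPM in sgRnf19a_IR and 16.8 ± 2.66 in control_IR, adjusted p = 1.44e-06). Trim14 was higher by 1.69 ± 0.19 (adjusted p = 9.34e-05), Trim26 by 1.31 ± 0.12 (adjusted p = 1.68e-05) and Trim25 by 0.83 ± 0.13 (adjusted p = 0.000883). Trim56 had 96, 59.2 and 149 CPM in sgRnf19a_IR, 63.7, 65.7 and 67.9 in sgRnf19a, 18.5, 29.7 and 30.8 in control_IR, and 48.2, 44.5 and 52.4 in control. Its IR-treated groups did not overlap (1.94 ± 0.29, adjusted p = 0.000734). Trim23, a ligase with an ARF GTPase domain, had 12.4, 10.8 and 34.6 CPM in sgRnf19a_IR, 28.5, 33.6 and 40.8 in sgRnf19a, 3.59, 5.65 and 2.95 in control_IR, and 34.5, 28.1 and 29.5 in control. Trim23 was thus higher with the guide under IR (2.25 ± 0.41, adjusted p = 0.00236), at levels in sgRnf19a_IR replicates 1 and 3 that were below all untreated libraries.

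A further set was higher under IR with no call in untreated cells. Trim33, a PHD-bromodomain ligase of TGF-beta signalling, had 33.5, 19.5 and 79.9 CPM in sgRnf19a_IR, 143, 154 and 151 in sgRnf19a, 9.69, 11.4 and 12 in control_IR, and 107, 116 and 91.2 in control (guide under IR 2.01 ± 0.39, adjusted p = 0.00303). Trim24, a PHD-bromodomain coregulator of nuclear receptors, had 10.8, 7.04 and 23.5 CPM in sgRnf19a_IR, 39.6, 43.8 and 43.4 in sgRnf19a, 3.73, 4.3 and 6.14 in control_IR, and 35.7, 36.2 and 26.1 in control (1.54 ± 0.37, adjusted p = 0.0082). Both were lower in IR-treated than in untreated libraries with either guide, and the test of the difference between these responses did not call them (adjusted p = 0.148 for Trim33 and 0.211 for Trim24). Trim37, a MATH-domain ligase of the centrosome, was higher by 1.43 ± 0.27 (adjusted p = 0.00298), Trim44, a member without a RING domain, by 1.35 ± 0.25 (adjusted p = 0.0026) and Trim59, a transmembrane member, by 1.33 ± 0.23 (adjusted p = 0.00183). Among the IR-treated libraries sgRnf19a_IR replicate 4 had the highest long-minus-short value and the highest level of each of these 5 genes. That is a single library, and it was also the highest of them at members with shorter transcripts, such as Trim21. The part of library composition in these calls was not tested. With a correction of each library for transcript length and GC content, 23 of the 27 calls remained. The lost ones were Trim30c, Trim59 (0.37), Trim47 (-0.27) and Trim54 (-0.33), and Trim33 came to 0.84, Trim37 to 0.68, Trim44 to 0.71, Trim23 to 1.08 and Trim24 to 1.26.

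The 4 members lower in sgRnf19a_IR than in control_IR were Trim66, Trim47, Trim54 and Trim27. Trim66, a PHD-bromodomain corepressor, had 1.49, 1.52 and 2.45 CPM in sgRnf19a_IR, 3.68, 3.08 and 2.92 in sgRnf19a, 4.44, 6.31 and 5.64 in control_IR, and 5.42, 6.61 and 5.38 in control. The guides did not overlap in either state, with log2 fold changes of -1.59 ± 0.25 under IR (adjusted p = 0.00106) and -0.85 ± 0.24 without IR (adjusted p = 0.0642). Trim47, a SPRY ligase, was at -1.02 ± 0.24 (adjusted p = 0.00788), Trim54, a sarcomere-associated COS box member, at -0.93 ± 0.28 (adjusted p = 0.0244), and Trim27, a SPRY ligase of the nucleus and endosomes, at -0.66 ± 0.22 (adjusted p = 0.037). At an adjusted p under 0.05, 2 low members, Trim15 and Trim69, were also higher under IR. Trim15 had 39, 17 and 53 counts in sgRnf19a_IR and 5, 0 and 0 in control_IR. Trim69 had 31, 40 and 132 counts in sgRnf19a_IR and 4, 18 and 4 in control_IR. The Trim69 call was lost without sgRnf19a_IR replicate 4 (adjusted p = 0.0594). With only the 2 groups fitted, neither Trim15 nor Trim69 was called (adjusted p = 0.0567 and 0.0551).

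**Figure D3:**
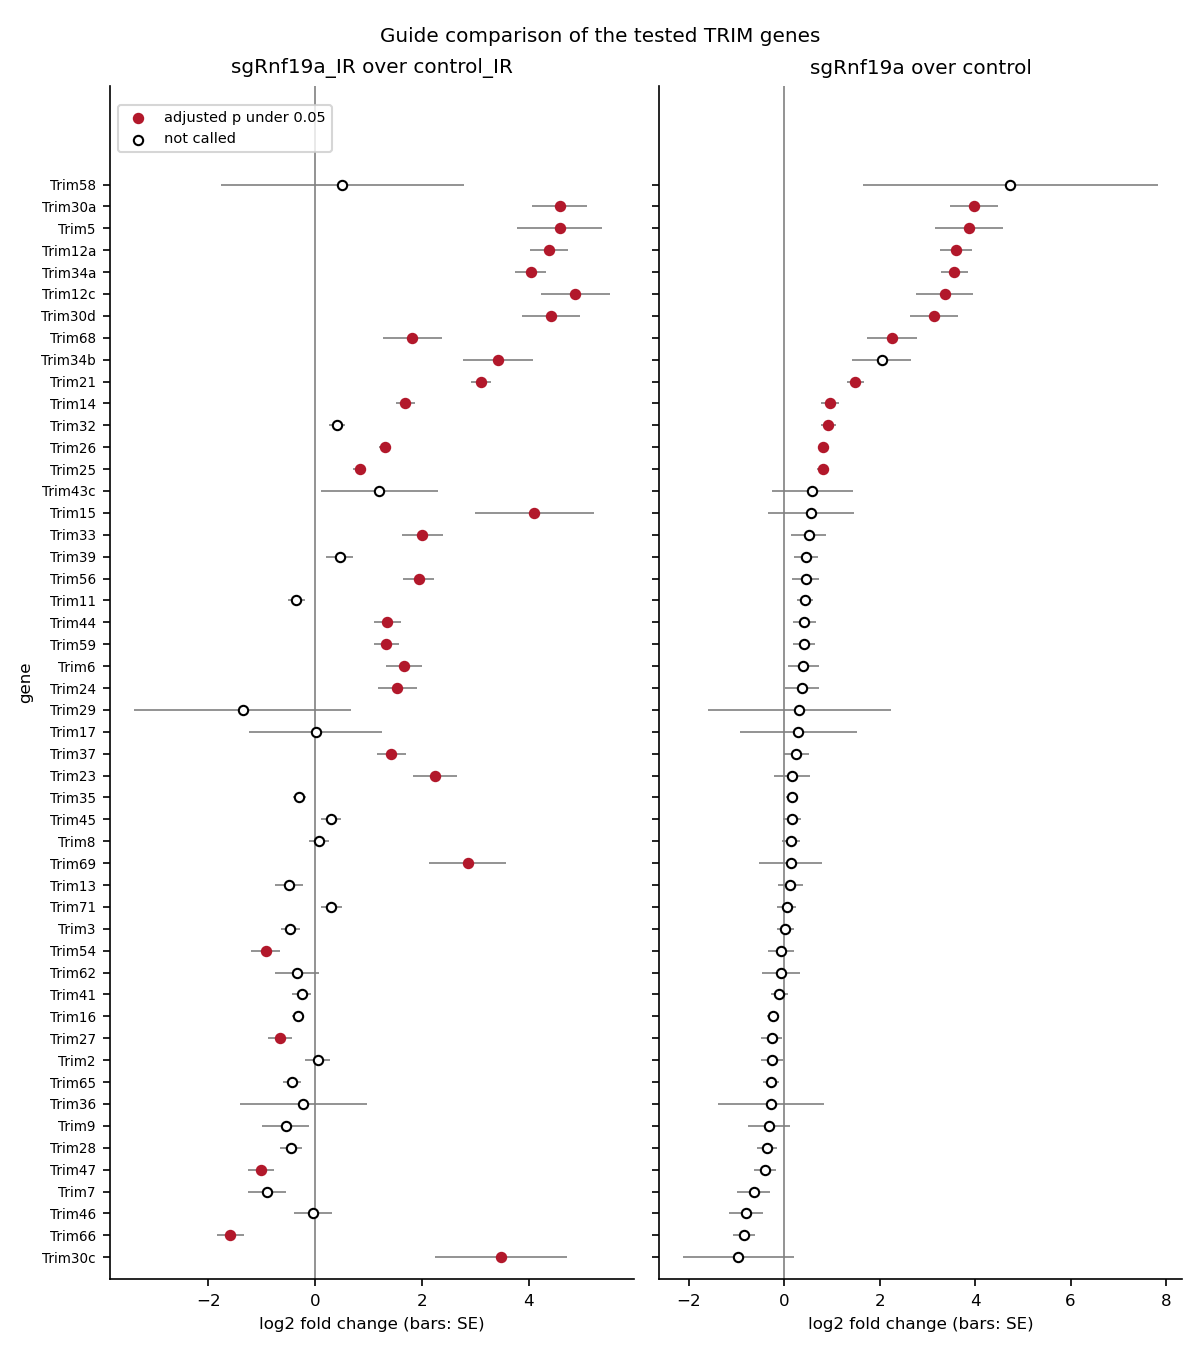
Log2 fold changes of the 50 tested TRIM genes with the guide, sgRnf19a_IR over control_IR on the left and sgRnf19a over control on the right, bars giving the SE and filled points an adjusted p under 0.05. The 12 called genes on the right are all above 0, and 23 of the 27 called genes on the left are; Trim58, at the top, had counts in 3 libraries only and a wide SE.

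IR in sgRnf19a cells was the next comparison. Of the 50 tested members 10 were higher and 10 lower in sgRnf19a_IR than in sgRnf19a, against 18.0% higher and 17.6% lower over all genes tested. The share of members called, 20% each way, was thus near the background. The largest change among genes above 2 CPM was that of Trim21, with 144 ± 27.6 CPM in sgRnf19a_IR and 13.8 ± 1.27 in sgRnf19a (3.38 ± 0.19, adjusted p = 9.41e-07). Trim34a was higher by 2.27 ± 0.26 (adjusted p = 0.000106), Trim34b by 2.18 ± 0.60 (adjusted p = 0.0147), Trim14 by 2.02 ± 0.19 (adjusted p = 3.62e-05) and Trim12a by 1.73 ± 0.31 (adjusted p = 0.00128). Trim25 (0.88 ± 0.13), Trim47 (0.78 ± 0.24), Trim26 (0.57 ± 0.11), Trim30c (4.20 ± 1.24) and Trim69 (2.39 ± 0.68) were the other genes called higher. The Trim30c call was lost without sgRnf19a_IR replicate 4 or sgRnf19a replicate 3. The Trim69 call was lost without sgRnf19a_IR replicate 4 (adjusted p = 0.0915), sgRnf19a replicate 2 (0.063) or sgRnf19a replicate 3 (0.0616). Among the other cluster genes Trim30a, Trim30d, Trim12c and Trim5 were not called (log2 fold changes of 0.47, 0.46, 1.01 and -0.56), and in each the sgRnf19a_IR libraries lay on both sides of the sgRnf19a ones. Without sgRnf19a_IR replicate 4 Trim5 was called lower (-1.62, adjusted p = 0.0314).

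The lower members in sgRnf19a_IR included Trim33 (-1.75 ± 0.38, adjusted p = 0.004), Trim24 (-1.61 ± 0.36, adjusted p = 0.00469), Trim37 (-1.15 ± 0.27, adjusted p = 0.0065) and Trim44 (-1.13 ± 0.25, adjusted p = 0.00441). Without sgRnf19a_IR replicate 4 these came to -2.50, -2.25, -1.60 and -1.53, and 15 members in place of 10 were called lower. The share lower over all genes was not taken for that fit, so this rise has no background. Trim71, the NHL repeat protein Lin41 of early development, had 14.2, 12.9 and 19.9 CPM in sgRnf19a_IR, 27.4, 28.5 and 27.2 in sgRnf19a, 9.51, 13.1 and 15.4 in control_IR, and 25.9, 30.4 and 24.1 in control. It was lower with IR without overlap in sgRnf19a cells (-0.82 ± 0.20, adjusted p = 0.00827). Trim39, Trim66, Trim35, Trim16 and Trim43c were the other genes called lower. The Trim16 call (-0.35) was lost in several alternatives, among them upper-quartile factors (adjusted p = 0.137) and only the 2 groups fitted (0.139). Trim43c had 4, 0 and 15 counts in sgRnf19a_IR. Its call was lost with only the 2 groups fitted (adjusted p = 0.0694) and in several leave-one-out fits, such as without sgRnf19a_IR replicate 1 (0.109). With the length and GC correction 18 of the 20 calls remained, and Trim66 (-0.28) and Trim71 (-0.25) did not.

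IR in control cells gave 10 higher and 12 lower members of 50, against 22.2% higher and 25.7% lower over all genes tested, again near the background. Trim34a was higher by 1.80 ± 0.27 (adjusted p = 0.00024), Trim21 by 1.77 ± 0.18 (adjusted p = 5.64e-05), Trim14 by 1.29 ± 0.19 (adjusted p = 0.000199), Trim12a by 0.95 ± 0.33 (adjusted p = 0.0309) and Trim25 by 0.86 ± 0.13 (adjusted p = 0.00024). Trim47 had 56.1, 69 and 31.2 CPM in sgRnf19a_IR, 28.3, 30.1 and 32.6 in sgRnf19a, 117, 89.4 and 110 in control_IR, and 40.7, 35 and 45.2 in control. It was the third largest rise above 2 CPM in control cells (1.39 ± 0.24, adjusted p = 0.000577). Trim54 (0.91), Trim27 (0.71), Trim11 (0.51) and, below 2 CPM, Trim9 (1.25) completed the list. The Trim9 and Trim11 calls were lost in several alternatives, among them no filter on low counts (adjusted p = 0.117 and 0.076). Ifnb1 had 16.3, 23.2 and 23.8 CPM in control_IR and 0.235, 0.143 and 0.205 in control (6.75 ± 0.36, adjusted p = 1.68e-06). Under IR Ifnb1 had 23.9, 28.4 and 22.4 CPM in sgRnf19a_IR, which overlapped control_IR (guide under IR 0.24 ± 0.26, adjusted p = 0.534).

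The lower members in control_IR were led by Trim33 (-3.24 ± 0.40, adjusted p = 0.00011), Trim23 (-2.92 ± 0.42, adjusted p = 0.000197), Trim24 (-2.78 ± 0.38, adjusted p = 0.000154), Trim37 (-2.33 ± 0.28, adjusted p = 9.82e-05) and Trim44 (-2.07 ± 0.26, adjusted p = 0.00011). Trim44 had 63, 41.5 and 101 CPM in sgRnf19a_IR, 146, 152 and 153 in sgRnf19a, 23, 30.1 and 27.6 in control_IR, and 111, 119 and 108 in control. Trim37 had 33, 26.1 and 61.5 CPM in sgRnf19a_IR, 87.1, 89.5 and 90.8 in sgRnf19a, 14.6, 18.4 and 11.8 in control_IR, and 78.4, 80.2 and 66.4 in control. In both genes every IR-treated library was below every untreated one. Trim6 (-1.55), Trim59 (-1.22), Trim71 (-1.08), Trim39 (-0.88), Trim56 (-0.87), Trim2 (-0.83) and Trim43c (-3.53) were also called lower. Among the PHD-bromodomain genes Trim28 was not called in any comparison: it had 239, 268 and 139 CPM in sgRnf19a_IR, 193, 187 and 194 in sgRnf19a, 319, 268 and 298 in control_IR, and 218, 229 and 288 in control.

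Transcript length and base composition moved with the IR response. Over the 50 tested members Spearman's rho between the length of the longest annotated transcript and the log2 fold change was -0.451 in sgRnf19a cells and -0.384 in control cells. For GC content it was 0.0696 in sgRnf19a cells and 0.408 in control cells. These describe genes of the same libraries and carry no p. With the correction for both, 15 of the 22 calls in control cells remained. Trim33 came to -1.63, Trim23 to -1.34, Trim24 to -2.45, Trim37 to -1.32 and Trim44 to -1.16, all still called. Trim56 (0.06) and Trim59 (0.03) came to about 0, Trim2 turned from lower to higher and was called so (0.46, adjusted p = 0.0287), and Trim71 (-0.31), Trim39 (-0.53), Trim54 (0.05) and Trim11 (0.33) were no longer called. The part of RNA composition in the remaining calls was not tested.

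**Figure D4:**
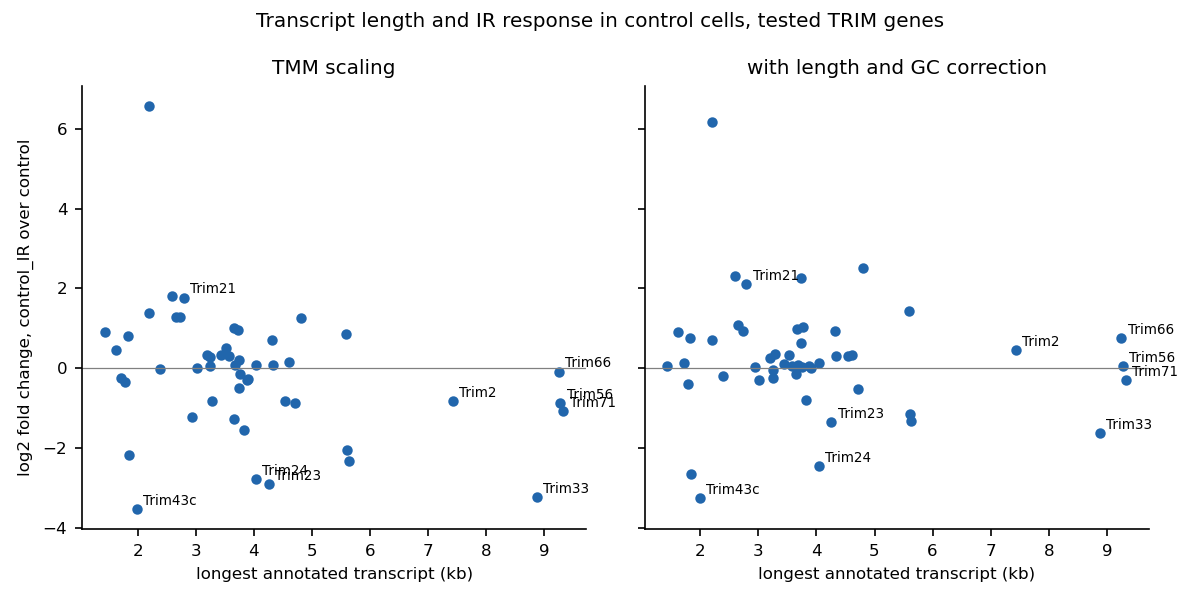
Log2 fold change of control_IR over control for the 50 tested TRIM genes against the length of the longest annotated transcript in kb, with TMM scaling on the left and with the correction for length and GC content on the right. The long transcripts Trim2, Trim56 and Trim71 are below 0 on the left and nearer to or above it on the right, Trim33 is at -1.63 on the right, and the unlabelled point above 6 is Trim58, with counts in 1 control_IR library only.

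The 2 IR responses shared calls. Of the members higher with IR, 6 were called with both guides (60% of each list): Trim12a, Trim14, Trim21, Trim25, Trim34a and Trim47. Of those lower, 7 were called with both, which is 70% of the calls in sgRnf19a cells and 58.3% of those in control cells: Trim24, Trim33, Trim37, Trim39, Trim43c, Trim44 and Trim71. The shared calls over all genes tested were not counted, so these overlaps have no background and describe the lists only. The difference between the responses was then tested for each gene. Only Trim21 was called, with a log2 difference of 1.62 ± 0.25 (adjusted p = 0.0246), against 0.544% of all genes higher and 0.137% lower. At an unadjusted p under 0.05 there were 17 members, 14 higher and 3 lower, and DESeq2 called 7 higher and 1 lower. Shares over all genes were not taken for these counts, and the percentages above, from edgeR's adjusted p, are no background for them. Trim21 was higher with IR in 3 of 3 libraries of each guide. The call was lost when any 1 of 7 of the 12 libraries was left out (adjusted p of 0.0523 to 0.0898), and over these fits the difference ran from 1.46 to 1.73. Over the other alternatives it ran from 1.22 with the length and GC correction to 1.75 on FPKM, and the adjusted p from 5.66e-07 to 0.0221. Trim56 (1.50 ± 0.40, adjusted p = 0.0979) and Trim23 (2.08 ± 0.56, adjusted p = 0.0983) did not reach the threshold.

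**Figure D5:**
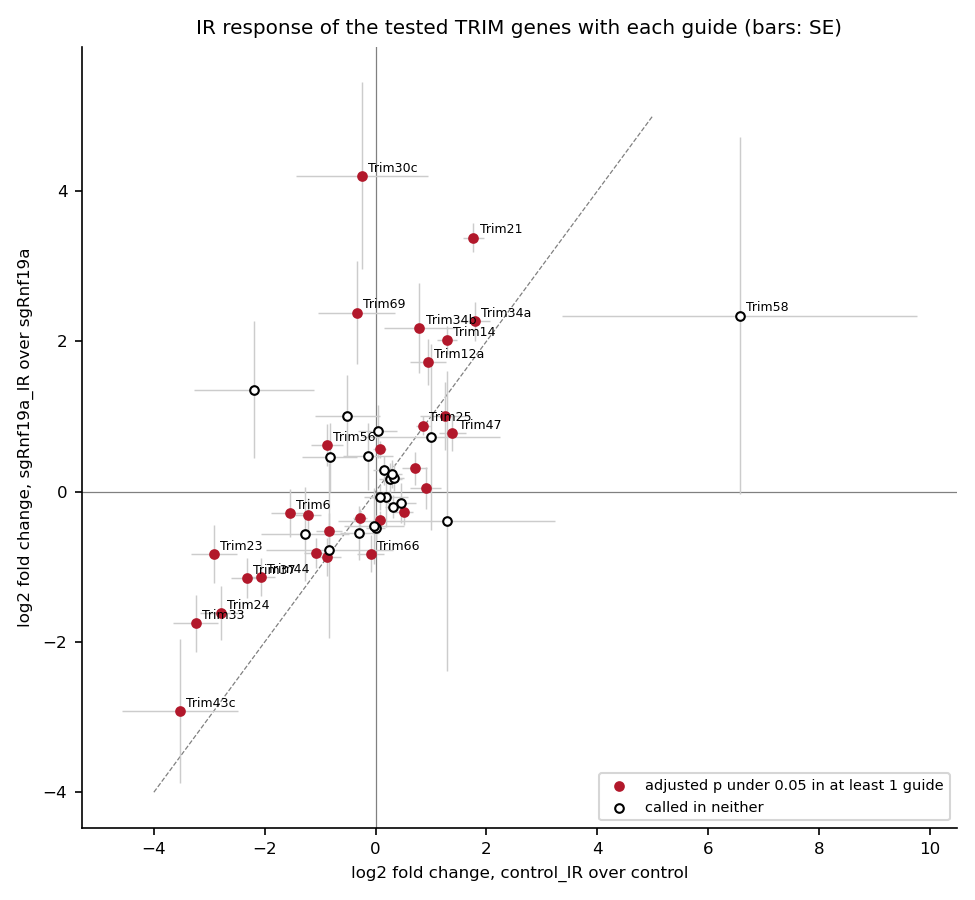
IR response of each tested TRIM gene in sgRnf19a cells (vertical axis) against that in control cells (horizontal axis), as log2 fold changes with SE bars, a dashed line marking equal responses and filled points a call with at least 1 guide. Trim21 lies above the line at 3.38 in sgRnf19a and 1.77 in control cells, Trim33, Trim24, Trim23, Trim37 and Trim44 lie above it on the negative side, and Trim58 rests on counts in 3 libraries.

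The genes around the sensing members also changed with IR. Of the 23 in the list, 12 were higher and 5 lower in sgRnf19a_IR than in sgRnf19a, against 18.0% and 17.6% of all genes. In control_IR 12 were higher and 6 lower than in control, against 22.2% and 25.7%. The shares lower, 21.7% and 26.1% of the list, were thus near the background. In the guide comparison under IR 14 were higher and 2, Mavs and Irf3, were lower, against 21.0% and 12.8%. Cgas, the cytosolic DNA sensor, had 31.5, 25.6 and 33.1 CPM in sgRnf19a_IR, 15.4, 12.5 and 16.4 in sgRnf19a, 1.1, 0.574 and 0.322 in control_IR, and 1.59, 1.84 and 1.74 in control. It was 1 of 2 genes of this list, both higher, called in the difference between the IR responses (2.44 ± 0.42, adjusted p = 0.0318). Over all genes tested 0.544% were higher and 0.137% lower in that difference. The Cgas values in control_IR rest on 31, 20 and 12 counts, the last at the floor of 12. Alternatives were not taken for this list. The second was Irf1, a transcription factor of interferon responses, with 332, 306 and 311 CPM in sgRnf19a_IR, 61.8, 62.1 and 56.9 in sgRnf19a, 108, 145 and 130 in control_IR, and 51, 54.9 and 50.4 in control (1.10 ± 0.18, adjusted p = 0.0255).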

How the data were processed

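RNA was ribosome-depleted and made into strand-marked libraries read as 37 bp pairs, per the labels' protocols. Bowtie2, HTSeq, DESeq2, mm10 and GRCm39 are named in the submitters' processing notes, with versions and roles not given in the sources used here. The authors deposited counts per gene without normalization; low values piled up at multiples of 4, so the deposited values were treated as estimated counts. The authors also deposited FPKM values, used for levels and 1 alternative test. Another 12 columns holding the same counts again were left unused. Only the untreated columns match sample labels. The names of 6 columns hold a guide and a D but nothing about IR, and they were taken as the IR-treated libraries of that guide, the sole labelled group left; their numbers differ from the labels', and every IR value rests on this placing. Every pair of libraries within a group differed by more than counting noise.

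Genes were kept by filterByExpr (minimum count 10, minimum total 15) and fitted over all 12 libraries with TMM scaling in edgeR 4.0.16 (glmQLFit, robust; glmQLFTest, 2-sided; R 4.3.3). Benjamini-Hochberg adjustment ran over 18183 genes, and SE is the log2 fold change divided by the square root of F. Fold changes put sgRnf19a over control and IR over untreated. Alternatives were DESeq2 1.42.0, RLE and upper-quartile factors, no count filter, counts divided by 4, only the 2 groups compared, a correction for length and GC content (splines with 5 degrees of freedom, GENCODE M21), limma 3.58.1 on log2(FPKM + 1) where the mean FPKM reached 0.5, a replicate block, and leaving out each library. The edgeR script was tested on simulated data.

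Named with values are members of a preset list and, in each comparison, up to 8 called members in each direction with at least 2 CPM; Trim9, Trim11, Trim15, Trim16, Trim43c, Trim68 and Trim69 were named after their values were seen. Members and lists were chosen with earlier results of these data known. Same-numbered untreated libraries of the 2 guides did not deviate together (correlations -0.157 to 0.033), so numbers were not used as pairs. Start and end positions come from the FPKM table; 52 of 62 members have the same start and end in GENCODE M21, the mm10 annotation. Protein sequences were not compared.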

Additional observations from a re-analysis of the deposited data

Results flagged for a closer look

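Trim21 was flagged because its response to IR differed between the guides: the log2 response in sgRnf19a cells exceeded that in control cells by 1.62 (adjusted p = 0.0246, edgeR's quasi-likelihood test with Benjamini-Hochberg adjustment). As given above, this call was lost in several of the fits that left out a library. Trim21 was higher with IR in 3 of 3 libraries of each guide, at 120 to 174 CPM in sgRnf19a_IR and 12.6 to 15.1 CPM in sgRnf19a, and at 14.1 to 19.4 CPM in control_IR and 4.2 to 5.4 CPM in control.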

How the results depend on the processing

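All 11 of the named genes called between the guides in untreated cells kept their direction and call under every alternative that gave a value, as did 18 of 24 between the guides under IR, 8 of 17 for IR in sgRnf19a cells and 10 of 19 for IR in control cells. In the difference between the IR responses 1 named gene was called, Trim21, and that call was not kept under every alternative. Counts of members called that moved by more than 1.5 times were as follows. With the length and GC correction, 7 were lower with IR in control cells and 1 was lower with the guide in untreated cells. On FPKM, 5 were higher with IR in sgRnf19a cells and 4 in control cells. With only the 2 groups fitted, 5 were lower with IR in sgRnf19a cells, 3 lower with the guide in untreated cells and 2 lower with the guide under IR. DESeq2 and counts divided by 4 each called 1 lower with the guide in untreated cells, and upper-quartile factors 9 lower with the guide under IR. DESeq2 called 7 members higher and 1 lower in the difference between IR responses. Shares over all genes are not set beside these counts, which describe the members only.

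Directions turned for IR in control cells with the length and GC correction at Trim30a (1.02), Trim56 (0.061), Trim66 (0.76), Trim2 (0.46) and Trim59 (0.031), and on FPKM at Trim26 (-0.37), Trim3 (-0.43) and Trim35 (-0.40). The same correction turned Trim54 for IR in sgRnf19a cells (-0.53) and Trim2 between the guides under IR (-0.78). The cause was not tested.

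Leaving out each library gave, for IR in sgRnf19a cells, 6 to 12 higher and 6 to 15 lower, and for IR in control cells 6 to 12 higher and 11 to 14 lower. Shares over all genes were not taken for any of the leave-one-out fits. Between the guides it gave 21 to 24 higher and 2 to 6 lower under IR, and 11 to 13 higher and 0 to 1 lower without IR. For the difference between IR responses it gave 0 to 10 higher and 0 to 2 lower, the highest values without sgRnf19a_IR replicate 3. The replicate block gave 11 higher and 0 lower in untreated cells, Trim68 being the call lost. No paired analysis was possible because the IR-treated columns carry no label number, for the other comparisons. Of all genes called, the share higher was 46.3% for IR in control cells, 56.2% with upper-quartile factors, 55.7% with the correction and 25.9% on FPKM. For IR in sgRnf19a cells it was 50.4%, against 22.3% on FPKM. For the guide under IR it was 62.1%, against 43.5% with the correction and 50.8% on FPKM. For the difference it was 79.8%, against 47.4% with the correction. Upper-quartile factors moved the median of all genes for IR in control cells to 0.19 and FPKM to -0.34. Members at a few read pairs, such as Trim30b, Trim30c and Trim58, are limited by depth.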
